A study of Mus musculus with 12 samples.

Results

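The genes described here are 10 members of the NF-kB system in the mouse lung: the transcription factor subunits Nfkb1, Nfkb2, Rela, Relb and Rel, and the inhibitors and feedback regulators Nfkbia, Nfkbie, Nfkbiz, Bcl3 and Tnfaip3. They were chosen by name, with earlier results of these data known. Each was read through every array probe set that carried its symbol alone, which gave 18 of 45037 probe sets. Of the 10 genes, 9 had such a probe set and 8 passed the filter on low signals, among 12309 genes tested. Nfkb1 had none and was not analysed here, and Rel, just under the filter level, is given by its signals. Where a gene had several probe sets, the one with the highest mean signal stood for it and the others served as a check.

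Total RNA of whole lungs from 12 male C57BL/6 mice aged 8 to 12 weeks was measured, 1 array per lung and 3 lungs in each of 4 groups. The mice were wild type or nmMLCK-/-, here called the knockout, in which the long, non-muscle form of the myosin light chain kinase gene Mylk is missing. This form of the kinase acts on the cytoskeleton, among others in endothelium. Lungs of each genotype came from mice that breathed spontaneously (SB) or that underwent 4 h of high tidal volume ventilation, a model of ventilator-induced lung injury (VILI). The labels of the samples state 40 ml/kg at 65 breaths/min without positive pressure at the end of expiration (0 cm H2O), while the text of the series states 30 ml/kg. None of the 4 groups was ventilated at a low tidal volume, so a VILI against SB difference joins ventilation as such with its injurious volume. Signals are log2 values, so a difference of 1 is a 2-fold change. In whole lung, a different number of cells of a type and a different amount of RNA per cell cannot be told apart.

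NF-kB factors are dimers of Rel-domain proteins that bind kappaB sites in DNA. In resting cells they are held in the cytoplasm by IkB proteins such as those encoded by Nfkbia and Nfkbie, and inflammatory stimuli lead to phosphorylation and degradation of the IkBs, after which the dimers enter the nucleus. Several of the system's own genes are NF-kB targets, so that activation refills the pool of inhibitors and subunits. Because much of the regulation acts on protein, the RNA levels given here are not a measure of NF-kB activity. In the lung, the pathway is known for driving cytokine, chemokine and adhesion molecule genes in epithelium, endothelium and leukocytes.

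Stretches of the members' promoters are printed here because they show the kappaB-like letters next to the genes whose signals follow. RefSeq promoter windows (GRCm38.p6, 250 bases before to 50 after the start of transcription) were found for 7 of the 10 genes, and 6 of these held the 10-base NF-kB consensus on either strand in at least 1 window. Over all genes with a window the share was 5.14%, or 1388 of 27025, and over all distinct windows it was 4.5%. The window of Rela held none of these letters, which says nothing about binding elsewhere. Bases that lie in a match are in capitals, overlapping matches run together, and each sequence reads 5′ to 3′ in the direction of the gene.
Nfkb2, chr19:46304673-46304756 on the plus strand: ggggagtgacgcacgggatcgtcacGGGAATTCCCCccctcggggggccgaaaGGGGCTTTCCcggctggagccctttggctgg
Rel, chr11:23771026-23771086 on the minus strand: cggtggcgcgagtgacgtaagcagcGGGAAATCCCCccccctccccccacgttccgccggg
Nfkbia, chr12:55492642-55492701 on the minus strand: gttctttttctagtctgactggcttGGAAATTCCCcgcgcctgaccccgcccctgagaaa
Nfkbie, chr17:45555569-45555628 on the plus strand: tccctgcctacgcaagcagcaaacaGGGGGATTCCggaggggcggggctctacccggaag
Bcl3, chr7:19822736-19822778 on the minus strand: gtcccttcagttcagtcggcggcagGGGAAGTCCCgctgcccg
Tnfaip3, chr10:19015391-19015560 on the minus strand: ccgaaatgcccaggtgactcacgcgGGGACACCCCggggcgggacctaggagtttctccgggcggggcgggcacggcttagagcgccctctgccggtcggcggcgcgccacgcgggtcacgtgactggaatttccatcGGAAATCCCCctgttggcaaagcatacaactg
Nfkb2 has 3 windows and Tnfaip3 has 2, of which 1 each is shown. The Nfkb2 and Tnfaip3 stretches carry matches at separate places, and the Bcl3 match lies at 3 to 12 bases after the start rather than before it. Such a match is a description of the sequence and no evidence of binding in these lungs.

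All 12 arrays showed lung RNA, with Sftpc (surfactant protein C) at 15.7 to 15.81 and Scgb1a1 (the club cell secretory protein) at 16.15 to 16.22. Mylk stayed measurable in the knockout on each of its 3 probe sets. They read 12.77 to 13.05, 12.29 to 13.16 and 4.67 to 6.70 in wild-type and 12.68 to 12.83, 11.69 to 12.75 and 4.52 to 5.51 in knockout lungs. On the dimmest, the VILI lungs of the genotypes did not overlap (5.36 to 5.98 against 4.52 to 5.10). On the brightest, the SB lungs did not overlap (12.98 to 13.05 in wild type against 12.71 to 12.83 in the knockout). Among all genes tested the genotypes did not overlap for 20.5% after VILI and 6.6% under SB. Which form of the kinase each probe set reads is unknown here. The summed neutrophil marker signal (17 of 20 listed genes measured) was 14.13 to 15.66 in wild-type SB, 15.45 to 16.04 in wild-type VILI, 13.47 to 13.93 in knockout SB and 15.59 to 16.25 in knockout VILI lungs, with Camp near background on every array at 2.21 to 2.33. Wild-type SB replicate 3 gave the 15.66, while the other wild-type SB lungs were at 14.13 and 14.28. Of 11 endothelial markers 4 were called lower and 1 higher in the mean response, and their sum went from 16.38 to 16.68 under SB to 16.07 to 16.26 after VILI in wild type and from 16.41 to 16.53 to 16.08 to 16.15 in the knockout. Of 8 club and ciliated cell markers 5 were called lower and 0 higher. Among all genes tested 22.6% were called lower and 14.1% higher in the mean response. Of 9 T and NK cell markers 3 were called higher, and of 11 alveolar macrophage markers 2 were called higher and 1 lower. In the monocyte and alveolar type 2 lists 1 marker each was called higher, and in the B cell list 0 were called. The part of these shifts in cell markers in the results below was not tested.

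After high tidal volume ventilation most of the tested NF-kB members were higher in both genotypes, and none was called lower. Bcl3 rose about 4-fold, Nfkbiz, Relb and Rela rose by about 1.5 to 2-fold, and Nfkb2 passed the test in the knockout and in the mean of both genotypes. Nfkbia gave differences near 0. In wild type, 4 of 8 tested members were called higher (limma, Benjamini-Hochberg adjusted p under 0.05), against 6.34% of all genes tested (9.03% were called lower). In the knockout 5 of 8 were called higher, against 8.12% (12.6% lower). In the mean of both responses 6 of 8 were called higher, against 14.1% (22.6% lower), and the members not called there were Nfkbia and Nfkbie. The members' median difference was 0.63 in wild type, 0.60 in the knockout and 0.66 in the mean response, where the median of all genes was -0.05, -0.05 and -0.052. Every VILI lung exceeded every SB lung of its genotype for 6 members in wild type and 6 in the knockout, against 15.5% and 17.9% of all genes, and for 5 members across all 6 VILI and 6 SB lungs, against 7.45%. Because the members were chosen with earlier results of these data known, these counts beside the shares of all genes are a description and no independent test.

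**Figure D1:**
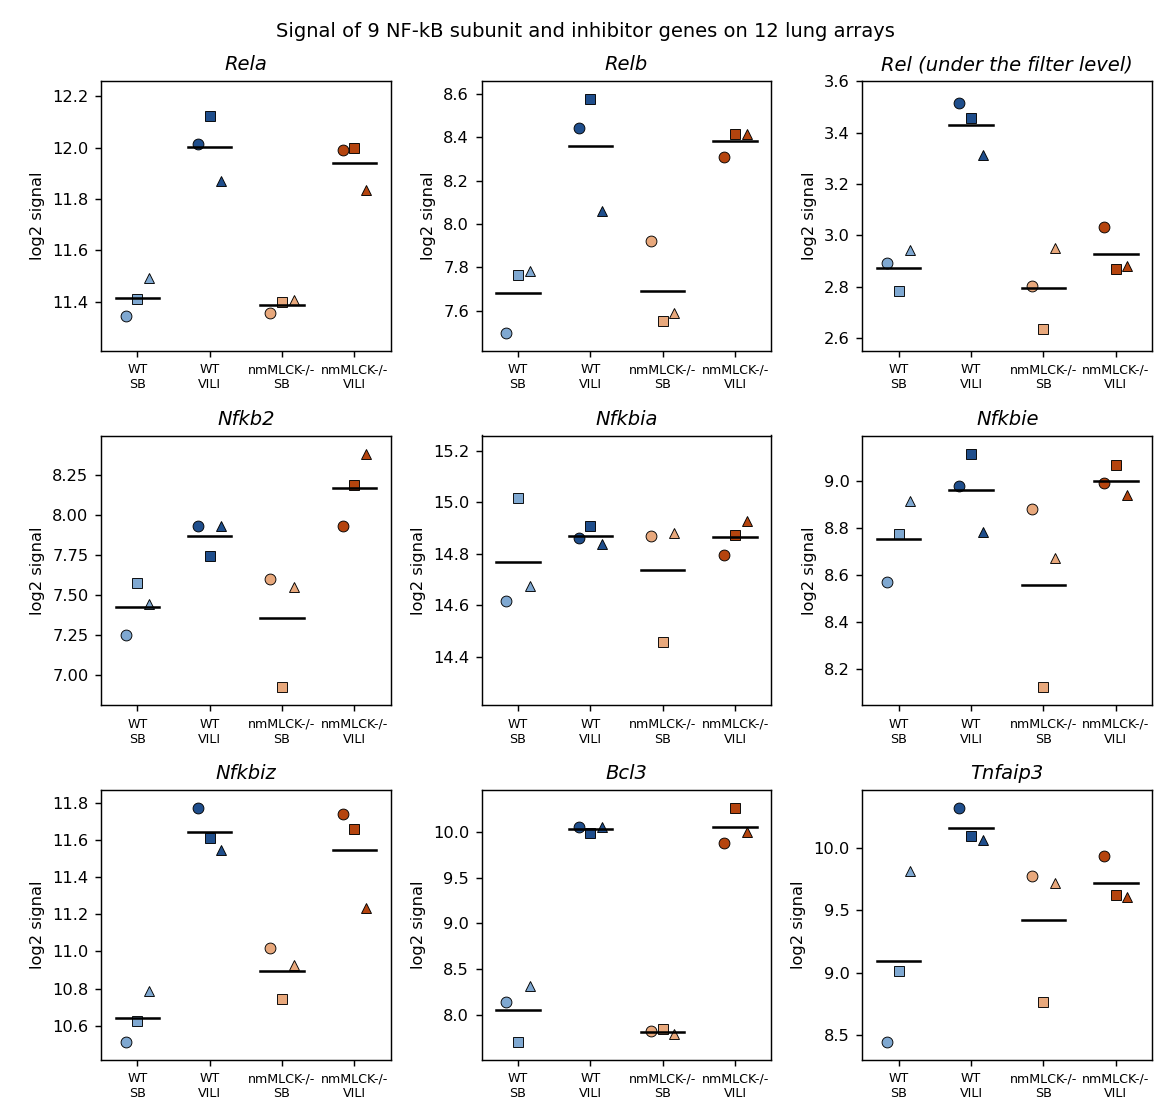
Log2 signal (y axis) of the 9 measured members in each of the 4 groups (x axis), with circle, square and triangle for replicates 1, 2 and 3 and a line at the group mean. Bcl3, Rela, Relb, Nfkbiz and Nfkb2 lie higher in every VILI lung than in any SB lung, Nfkbia does not separate the groups, and Rel is drawn near the filter level of 3.056.

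Rela encodes the main transactivating subunit of canonical NF-kB. Its signal in wild-type SB lungs was 11.35, 11.41 and 11.49, and in wild-type VILI lungs 12.01, 12.12 and 11.87. In the knockout it was 11.36, 11.40 and 11.41 under SB and 11.99, 12.00 and 11.83 after VILI. The SB lungs of both genotypes lay close together, and all VILI lungs were above them with no overlap. The difference was 0.59 ± 0.09 (SE, n = 3 per group; 1.501-fold; limma adjusted p = 0.002735) in wild type and 0.55 ± 0.09 (1.47-fold; limma adjusted p = 0.003313) in the knockout. Leaving out any single array ended neither call.

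Relb encodes the partner of the Nfkb2 product in the non-canonical pathway. Its signal was 7.50, 7.76 and 7.78 in wild-type SB and 8.45, 8.58 and 8.06 in wild-type VILI lungs, and 7.92, 7.55 and 7.59 in knockout SB and 8.31, 8.42 and 8.42 in knockout VILI lungs. The groups did not overlap in either genotype, but wild-type VILI replicate 3 was much closer to the SB lungs than the other VILI lungs were. The rise was 0.68 ± 0.15 (SE, n = 3 per group; 1.60-fold; limma adjusted p = 0.01423) in wild type and 0.69 ± 0.15 (1.61-fold; limma adjusted p = 0.0114) in the knockout. The wild-type call was lost on leaving out wild-type SB replicate 1 (0.587, adjusted p = 0.05878), wild-type VILI replicate 1 (0.637, adjusted p = 0.05076) or wild-type VILI replicate 2 (0.571, adjusted p = 0.05266), while the knockout and mean calls held without any array.

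Nfkb2 encodes the precursor that is processed to the DNA-binding subunit of the non-canonical pathway. Its leading probe set, of a type whose probes may be shared with other transcripts, read 7.25, 7.58 and 7.44 in wild-type SB and 7.93, 7.75 and 7.93 in wild-type VILI lungs. In knockout lungs it read 7.60, 6.92 and 7.55 under SB and 7.93, 8.19 and 8.38 after VILI. No VILI lung overlapped an SB lung, and knockout SB replicate 2 was the lowest of all. The knockout difference of 0.81 ± 0.18 (SE, n = 3 per group; 1.75-fold; limma adjusted p = 0.01428) was called. The wild-type difference of 0.45 ± 0.18 was not (limma adjusted p = 0.1279), but it was called without knockout SB replicate 2, which enters only through the shared spread (0.447, adjusted p = 0.04533). The mean response was 0.63 ± 0.13 (limma adjusted p = 0.004642). The second probe set gave 0.33 and 0.34, and was not called in the mean response (0.34, limma adjusted p over probe sets = 0.05683).

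Rel encodes c-Rel, a subunit prominent in lymphoid and myeloid cells. Its probe set averaged 3.01 over the 12 arrays, under the filter level of 3.056, so it was not tested with the other genes. It read 2.89, 2.78 and 2.94 in wild-type SB, 3.52, 3.46 and 3.31 in wild-type VILI, 2.80, 2.64 and 2.95 in knockout SB, and 3.03, 2.87 and 2.88 in knockout VILI lungs. The wild-type VILI lungs were above all others, and the knockout VILI lungs overlapped the SB lungs. Whether signals this low follow the amount of RNA was not tested.

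The classical inhibitors did not pass the test in any response. Nfkbia encodes IkB-alpha, the prototype inhibitor and an early target of NF-kB. Its signal was 14.62, 15.02 and 14.67 in wild-type SB, 14.86, 14.91 and 14.84 in wild-type VILI, 14.87, 14.46 and 14.88 in knockout SB, and 14.80, 14.87 and 14.93 in knockout VILI lungs. The VILI lungs lay within the range of the SB lungs in wild type, and the VILI values were tighter than the SB values in both genotypes. These signals stand near the top of the array's range, which reached 16.29, and whether the probe set was close to saturation was not tested.

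The Nfkbia difference was 0.10 ± 0.13 (SE, n = 3 per group; limma adjusted p = 0.6516) in wild type and 0.13 ± 0.13 (limma adjusted p = 0.5234) in the knockout. The 95% intervals were -0.20 to 0.40 and -0.17 to 0.43, so for this probe set a rise of the size seen for Rela lies outside both. All 5 Nfkbia probe sets gave mean responses of -0.04 to 0.19, the smallest limma adjusted p being 0.3833. The dimmest of them, with a mean signal of 7.70, gave -0.19 ± 0.27 in wild type and 0.48 ± 0.27 in the knockout, neither called. Knockout SB replicate 2 was the lowest of the 12 lungs on all 5, and without it the knockout difference of the leading probe set was -0.011.

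Nfkbie encodes IkB-epsilon, another cytoplasmic inhibitor. It read 8.57, 8.77 and 8.91 in wild-type SB, 8.98, 9.12 and 8.78 in wild-type VILI, 8.88, 8.12 and 8.67 in knockout SB, and 8.99, 9.07 and 8.94 in knockout VILI lungs. The wild-type groups overlapped and the knockout groups did not, with knockout SB replicate 2 far below the others. Its differences were 0.21 ± 0.18 (SE, n = 3 per group; limma adjusted p = 0.4651) and 0.44 ± 0.18 (limma adjusted p = 0.09988). The mean response of 0.32 ± 0.13 was just over the threshold (limma adjusted p = 0.06571). It was called without knockout SB replicate 1 (0.405, adjusted p = 0.02372), as was the knockout response (0.603, adjusted p = 0.03939), and the mean response was also called with array medians set equal (0.365, adjusted p = 0.03822), quantile normalization (0.347, adjusted p = 0.04692), array weights (0.386, adjusted p = 0.002165) and with knockout SB replicate 2 and wild-type SB replicate 3 both left out (0.256, adjusted p = 0.04795).

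**Figure D2:**
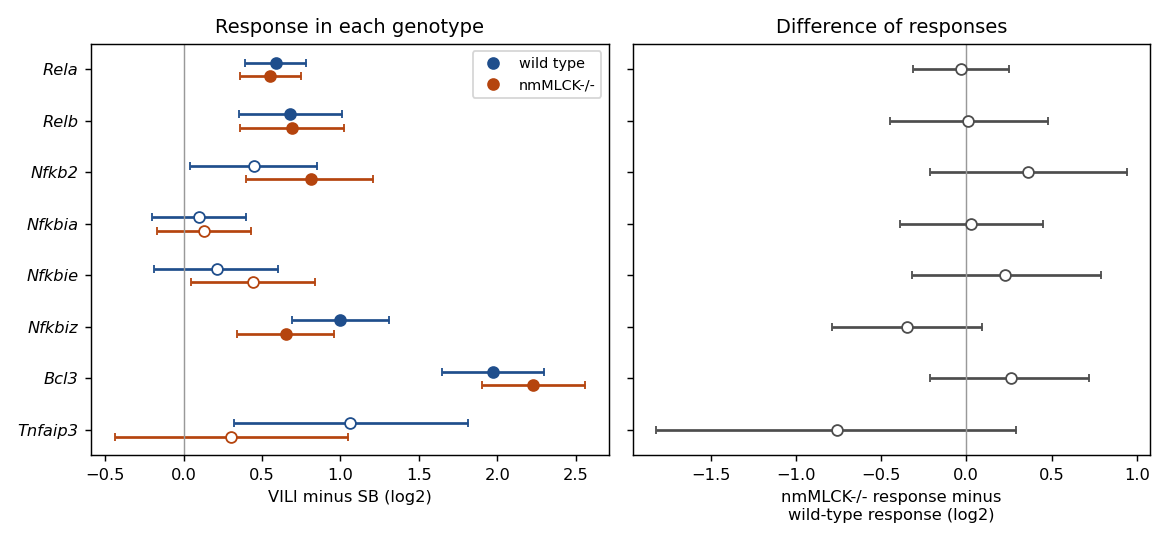
Left, the VILI minus SB difference (log2, x axis) of each tested member in wild type and knockout with its 95% interval. Right, the knockout response minus the wild-type response with its 95% interval. Filled points passed the test. The left panel shows Bcl3 at 1.97 and 2.23 to the right of all others, and every interval on the right crosses 0.

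The nuclear, atypical IkB genes Bcl3 and Nfkbiz gave the largest mean responses among the 8 tested members. Bcl3 encodes an IkB-like coactivator that joins DNA-bound homodimers of the Nfkb1 and Nfkb2 products. Its signal in wild-type lungs was 8.15, 7.71 and 8.32 under SB and 10.05, 9.99 and 10.05 after VILI. In knockout lungs it was 7.82, 7.84 and 7.79 under SB and 9.884, 10.261 and 10.001 after VILI. The VILI lungs stood well above the SB lungs in both genotypes, with a gap far wider than the spread inside any group. The rise was 1.97 ± 0.15 (SE, n = 3 per group; 3.93-fold; limma adjusted p = 0.0001044) in wild type and 2.23 ± 0.15 (4.69-fold; limma adjusted p = 5.776e-05) in the knockout. The mean response of 2.10 ± 0.10 (4.29-fold; limma adjusted p = 2.771e-06) was higher than 99.59% of all genes' mean responses. Its calls held without any single array and in every other setting tried. Wild-type SB replicate 3, whose neutrophil marker sum lay in the range of the VILI lungs, had the highest Bcl3 signal of the SB lungs, 8.32, below every VILI lung. Any link between the sum and Bcl3 was not tested.

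Nfkbiz encodes IkB-zeta, a nuclear coactivator needed for a subset of secondary response genes such as Il6. It read 10.51, 10.63 and 10.78 in wild-type SB and 11.77, 11.61 and 11.54 in wild-type VILI lungs. In the knockout it read 11.02, 10.75 and 10.92 under SB and 11.74, 11.66 and 11.23 after VILI. The groups were apart in both genotypes, and knockout VILI replicate 3 was the VILI lung nearest to the SB lungs. The difference was 1.00 ± 0.14 (SE, n = 3 per group; 2.00-fold; limma adjusted p = 0.001937) in wild type and 0.65 ± 0.14 (1.57-fold; limma adjusted p = 0.01204) in the knockout, and both calls held without any single array.

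The other Nfkbiz probe sets differed in the same direction by unlike amounts. The second gave 0.41 in wild type and 0.26 in the knockout, neither called, with a mean of 0.34 (limma adjusted p over probe sets = 0.04901). The third gave 0.88 and 1.32, of which the knockout value was called (limma adjusted p over probe sets = 0.01756), so the order of the genotypes was the reverse of that in the leading probe set. The transcripts that each probe set reads were not analysed here.

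Tnfaip3 encodes a ubiquitin-editing enzyme that shuts off signalling upstream of the IkB kinase and is itself induced by NF-kB. It read 8.45, 9.02 and 9.82 in wild-type SB and 10.32, 10.09 and 10.06 in wild-type VILI lungs. In the knockout it read 9.77, 8.77 and 9.72 under SB and 9.94, 9.62 and 9.61 after VILI. The wild-type groups did not overlap although the SB lungs were widely spread, and in the knockout 2 of the SB lungs were above 2 of the VILI lungs. Wild-type SB replicate 3, the lung with the high neutrophil marker sum, was the highest wild-type SB lung for this gene. Knockout SB replicates 1 and 3, with low sums of 13.93 and 13.82, read nearly as high, at 9.77 and 9.72. Any link of this gene to neutrophil content was not tested.

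The Tnfaip3 difference was 1.06 ± 0.34 (SE, n = 3 per group; limma adjusted p = 0.05696) in wild type and 0.30 ± 0.34 (limma adjusted p = 0.5475) in the knockout. The mean response of 0.68 ± 0.24 was called narrowly (limma adjusted p = 0.04488). Leaving out 1 of the 12 arrays ended this call for 9 of them. The value was 0.520 if knockout SB replicate 2 was left out, 0.523 if wild-type SB replicate 1 was, and 0.629 to 0.712 for wild-type SB replicate 2 or any of the VILI lungs. The largest adjusted p, 0.09533, came without knockout VILI replicate 1. The wild-type response was called without wild-type SB replicate 3 (1.426, adjusted p = 0.01243) or without knockout SB replicate 2 (1.065, adjusted p = 0.03149), and the knockout response without knockout SB replicate 2 was -0.025. Of 11 other settings, 4 also called the wild-type response. They were the filter at the 60th percentile (adjusted p = 0.04562), equal array medians (adjusted p = 0.04603), array weights (adjusted p = 0.000491) and both of these SB arrays left out (adjusted p = 0.001424). The second probe set gave 0.55 in wild type and -0.10 in the knockout, with no call.

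**Figure D3:**
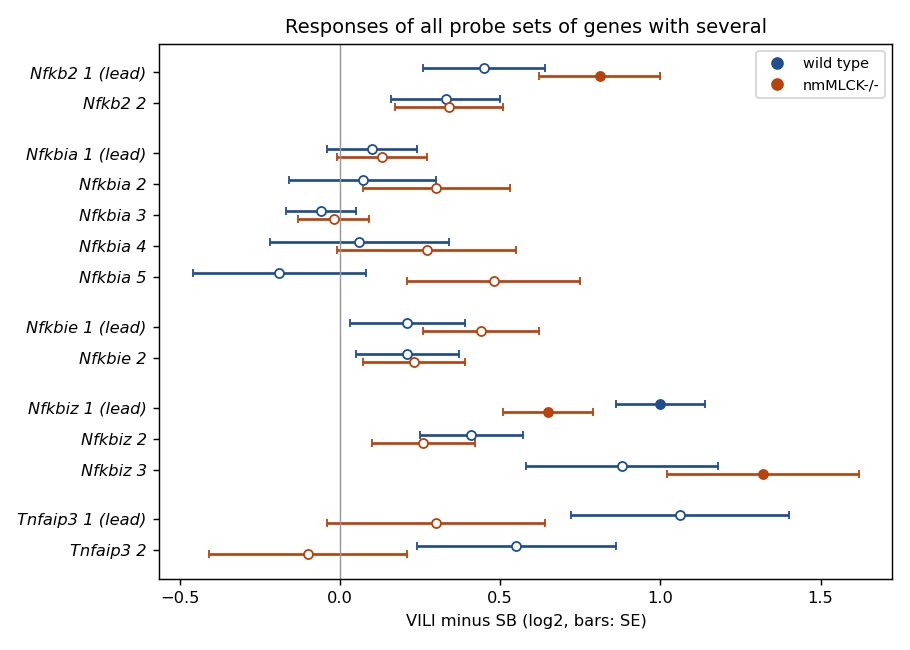
VILI minus SB difference (log2, x axis, bars are SE) of every probe set of the 5 members that have more than 1, in wild type and knockout, with filled points for those that passed the test over all probe sets. The 5 Nfkbia probe sets lie near 0 or have wide bars, while the 3 Nfkbiz probe sets are all above 0 and differ in size.

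Over the members' 17 probe sets past the filter, 4 were called higher in wild type, against 11.4% of all probe sets called in either direction. In the knockout 6 were called, against 17%, and in the mean response 7, against 32%, which is not far from the background. Of the 17, 15 were above 0 in wild type, 15 in the knockout and 16 in the mean response. The share above 0 over all probe sets was not counted. Several of the 17 read the same gene, 5 of them Nfkbia, so they are not independent of each other.

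The comparison of genotypes asks what loss of nmMLCK changes, and no tested member was called in it. Under spontaneous breathing 0 of 8 members were called, against 0.0487% of all genes, with knockout minus wild-type differences of -0.24 (Bcl3) to 0.33 (Tnfaip3). After VILI 0 of 8 were called, against 0.106%, with differences of -0.44 (Tnfaip3) to 0.30 (Nfkb2). The difference of the 2 responses was called for 0 of 8 members and for 0% of all genes, of which 619 had an unadjusted p under 0.05. In each of these 3 comparisons 0 of the 8 leading probe sets had an unadjusted p under 0.05 in limma, the smallest adjusted p being 0.9998, 0.6791 and 0.9711. In a fit without the filter, Rel had an unadjusted limma p of 0.0002859 after VILI and 0.00745 in the difference of responses. The second Tnfaip3 probe set had an unadjusted limma p of 0.0434 after VILI. None of these was called after adjustment. With array weights, whose estimate did not converge, 1 member was called in the difference of responses, Tnfaip3 at -1.54 (limma adjusted p = 0.03857).

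How much of a genotype difference the 3 lungs per group could leave unseen varied by gene. For Rela the knockout response minus the wild-type response was -0.03, with a 95% interval of -0.31 to 0.25, and for Relb it was 0.01 (-0.45 to 0.48). For Bcl3 it was 0.26 (-0.21 to 0.72). For Nfkb2 it was 0.36 (-0.21 to 0.94) and for Nfkbiz -0.35 (-0.79 to 0.09). For Nfkbia it was 0.03 (-0.39 to 0.45) and for Nfkbie 0.23 (-0.32 to 0.79). The widest interval was that of Tnfaip3, -0.76 ± 0.47 with -1.82 to 0.29 (SE, n = 3 per group; limma adjusted p = 0.9794).

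Among the VILI lungs, Tnfaip3 was the 1 tested member whose genotypes did not overlap, a pattern held by 20.5% of all genes in that comparison. The knockout lungs, at 9.61 to 9.94, were below the wild-type lungs, at 10.06 to 10.32, and the difference of -0.44 ± 0.34 was not called (limma adjusted p = 0.7503). The second Tnfaip3 probe set gave a larger difference in the same direction, -0.72 ± 0.31, which was not called either (limma adjusted p over probe sets = 0.4549). The neutrophil marker sums of the same lungs were 15.59 to 16.25 in the knockout and 15.45 to 16.04 in wild type, which overlap. Their part in the Tnfaip3 difference was not tested.

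Within groups, some arrays were low for most members at once. Wild-type SB replicate 1 was the lowest of its group for 7 of 8 members and knockout SB replicate 2 for 6 of 8, and together they held the lowest SB value of 7 members. The median member signal, after each gene was centred on its mean, was -0.49 and -0.58 on these arrays, and -0.27 to -0.10 on the other SB arrays. Wild-type VILI replicate 3 was the lowest of its group for 6 of 8 members. Wild-type SB replicate 3 was the highest of its group for 6 of 8 members, all but Nfkb2 and Nfkbia. The same counts were not made over all genes, so a pattern of the members cannot be told apart from that of a whole array. Over all genes tested, the deviations of knockout SB replicate 2 from its group mean correlated at -0.436 with those of wild-type SB replicate 1 and at 0.706 with those of wild-type SB replicate 3. Genes are not independent replicates, and these correlations describe the arrays.

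**Figure D4:**
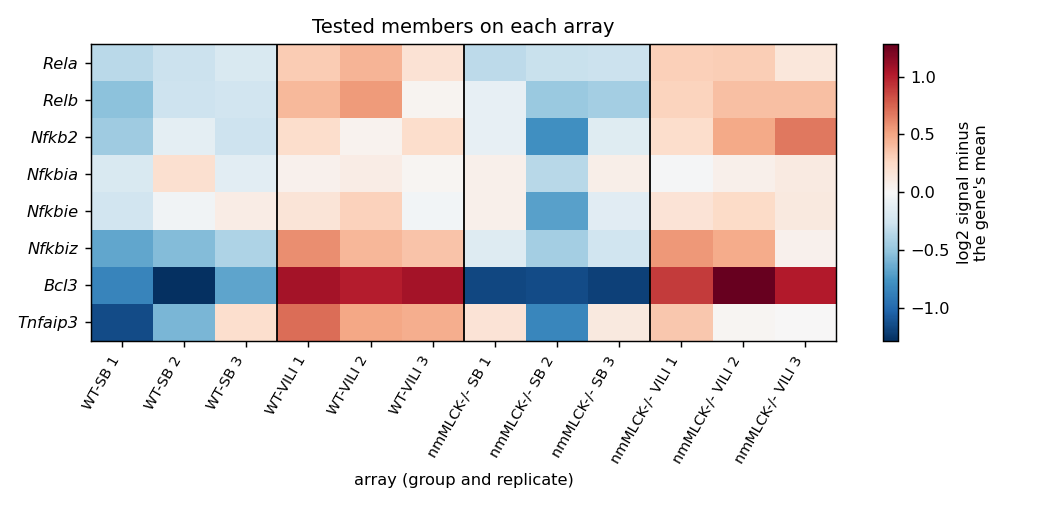
Log2 signal of the 8 tested members (rows) on the 12 arrays (columns, by group and replicate), each gene centred on its own mean, blue below and red above. Bcl3 changes sharply between SB and VILI columns, and knockout SB replicate 2 (written nmMLCK-/- SB 2) stands out in Nfkb2, Nfkbie and Tnfaip3.

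Genes around the members were read from 3 lists of the pathway with 102 distinct names, 5 of which stand in more than 1 list. The lists, too, were chosen with earlier results of these data known, so their counts are no independent test. Upstream signalling comprises receptors, adaptors, TRAF proteins and the IkB kinase complex. Of 38 such genes 31 were tested, and in the mean response 14 rose and 3 fell, with a median of 0.20 (all genes -0.052). Among all genes 14.1% rose and 22.6% fell. Myd88, the adaptor of Toll-like and interleukin 1 receptors, rose by 0.66 (limma adjusted p = 0.000352), at 0.67 in wild type and 0.65 in the knockout. Malt1, the paracaspase that links CARD proteins to the kinase, rose by 0.73 (limma adjusted p = 0.00045), at 0.85 and 0.60, and the knockout value was not called without knockout VILI replicate 2 (0.528, adjusted p = 0.05722). Card10, the CARD scaffold of non-immune cells, fell by 1.09 ± 0.12 (limma adjusted p = 0.0002089), at -1.30 and -0.88. Traf5, a TRAF adaptor, had a mean response of -0.73 (limma adjusted p = 0.00163), at -1.05 and -0.42, and the latter was not called. With the mean of all its probe sets the Traf5 mean response was smaller, at -0.326 (limma adjusted p = 0.01434).

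Of 22 other inhibitors and negative feedback genes tested, 4 rose and 3 fell in the mean response, beside 14.1% and 22.6% of all genes, with a median of 0.03. These counts are near the background. Nlrc3, an inhibitory NOD-like receptor, rose by 2.11 ± 0.16 (limma adjusted p = 2.12e-05), at 1.97 in wild type and 2.24 in the knockout. Nfkbid, the third nuclear IkB gene beside Bcl3 and Nfkbiz, rose by 1.33 ± 0.25 (limma adjusted p = 0.002968), at 1.49 and 1.17. Its mean call held without any single array, but leaving out 1 array ended the wild-type call in 4 of 12 fits and the knockout call in 8. Otulin, a deubiquitinase of linear chains, rose by 0.61 (limma adjusted p = 0.006059), at 0.553 in wild type, which was not called, and 0.661 in the knockout. Sigirr, an inhibitory member of the interleukin 1 receptor family, had a mean response of -0.73 (limma adjusted p = 0.005414). It was -0.656 in wild type, which was not called, and -0.795 in the knockout. For Otulin and for Sigirr, leaving out 1 array ended the knockout call in 5 of 12 fits.

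Textbook NF-kB target genes mostly rose where they were called. Of 46 listed, 35 were tested, and 20 rose and 1 fell in the mean response, beside 14.1% and 22.6% of all genes, with a median of 0.59. For 2 of the 35, Cxcl2 among them, a group mean lay under the filter level. These 2 passed the filter only through their higher groups, so their place in the counts is no independent result. Cd44, the hyaluronan receptor, rose by 0.63 ± 0.06 (limma adjusted p = 0.0001118). With the mean of all its probe sets the Cd44 mean response was 0.519 (limma adjusted p = 0.01142). The knockout response of Cd44 was then 0.424 and was not called (limma adjusted p = 0.1224). Cxcl2, a neutrophil chemokine, had a mean response of 3.32, at 4.465 in wild type and 2.171 in the knockout. Its SB means of 2.43 and 2.52 lay under the filter level, so its call and size are uncertain. Leaving out 1 array ended the knockout call (limma adjusted p = 0.04261) in 10 of 12 fits. Selp, the P-selectin of platelets and endothelium, rose by 1.77 ± 0.29 (limma adjusted p = 0.00141), at 1.91 in wild type and 1.63 in the knockout. Leaving out 1 array ended the wild-type Selp call in 1 of 12 fits and the knockout call in 4. With only the groups compared, the wild-type Selp call was also lost (limma adjusted p = 0.06738). Il1rn, the interleukin 1 receptor antagonist, rose by 1.18 (limma adjusted p = 0.00173), at 1.72 in wild type and 0.65 in the knockout, where it was not called. No gene of the 3 lists was called in the difference of responses or between genotypes. Of the 16 tested neutrophil markers, 14 were called higher in the same mean response, and their part in the rise of target genes was not tested.

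**Figure D5:**
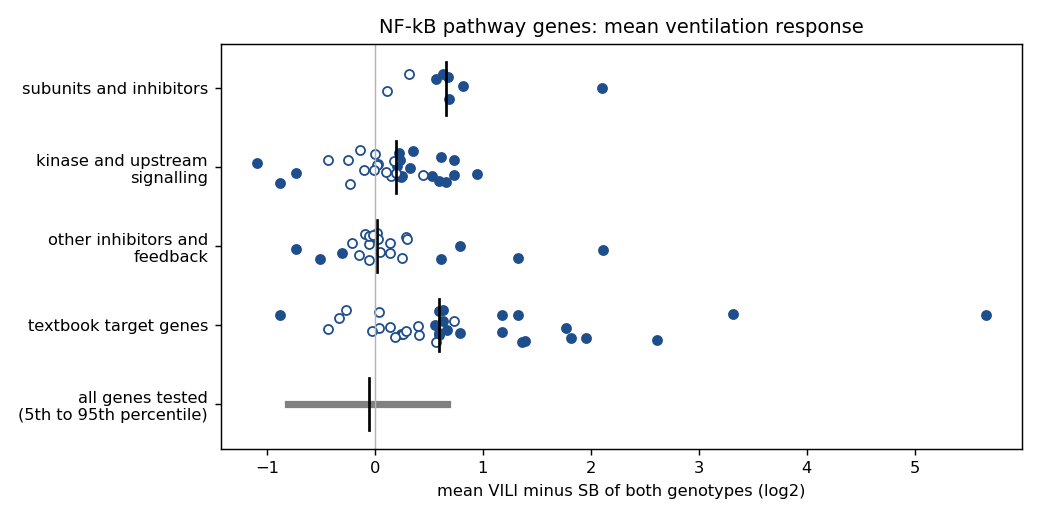
Mean VILI minus SB difference of both genotypes (log2, x axis) for the tested members and the 3 pathway lists, 1 point per gene, filled where called, with a line at each median and a grey bar from the 5th to the 95th percentile of all genes (-0.8 to 0.67). The medians are 0.66 for the members, 0.20 for upstream signalling, 0.03 for other inhibitors and 0.59 for targets.

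The genes whose pattern over the 12 arrays was most like that of a called member were found by the root mean square (RMS) difference of signals after each gene was centred on its mean. For Bcl3, with an RMS around its own mean of 1.065, the nearest was Socs3, a suppressor of cytokine signalling, at 0.2071, followed by Cdr2 at 0.2572 and Gm13889 at 0.2574. For Nfkbiz (0.4471) the nearest were Ptger4, a prostaglandin E2 receptor, at 0.1168, Acot9 at 0.1315 and the kinase gene Fyn at 0.1471. For Rela (0.2949) they were Eif4e2 at 0.06894, Mcrs1 at 0.07489 and Prelid3b at 0.07516. For Relb (0.3756) they were Hip1r at 0.1176, Heatr1 at 0.1247 and Rapgef1 at 0.132, and for Nfkb2 (0.3854) the histone demethylase gene Kdm6b at 0.1191, Cbarp at 0.1345 and Tmem189 at 0.1357. The nearest genes of Tnfaip3 (0.5433) were Zc3h12a, the gene of the RNase regnase-1, at 0.2683, Ms4a6d at 0.2772 and Ms4a6c at 0.2919. These distances describe the 12 arrays and carry no test.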

How the data were processed

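Signals on Affymetrix whole-genome mouse arrays were deposited as log2 values for each probe set, already normalized by the authors. MAS5 and GCRMA are named in the submitters' processing notes, with the role and version of each not given in the sources used here. Array medians lay at 4.94 to 5.037. Genes were named through the platform annotation, where 34945 of 45037 probe sets had 1 symbol, 932 several and 9160 none. Probe sets with a mean under the 40th percentile (3.056) were left out, and the probe set with the highest mean stood for its gene, which gave 12309 genes. Differences were tested with limma 3.58.1 (R 4.3.3) on 4 group means over 12 arrays, with Benjamini-Hochberg adjustment over all genes of a comparison and a threshold of 0.05. The fit was tested on simulated data. The series text gives 3 animals per group, and 3 arrays limit the precision. The members and lists were chosen with earlier results of these data known. Named are all members, called pathway genes among the 4 smallest p of a list in the mean response, and the 3 nearest genes of each called member. Alternatives covered the filter, scaling, choice of probe set, variance model, array weights, replicate block, groups in the fit and left-out arrays. A planned search of the inhibitors' proteins was not run, and promoters of Nfkb1, Relb and Nfkbiz were not analysed here.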

Additional observations from a re-analysis of the deposited data

How the results depend on the processing

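The responses of Bcl3, Rela and Nfkbiz kept direction and call in wild type, knockout and mean response under every alternative run. Over all member values and alternatives, 995 of 1088 kept direction and side of the threshold, 58 reversed, 18 lost and 17 gained a call. All reversed values were uncalled. The number of arrays limits what can be seen, and causes were not tested.

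Without a filter, 1 gene was called in the difference of responses and 6 between genotypes after VILI, and Rel was then called in wild type (0.56 ± 0.09, limma adjusted p = 0.007229) and in the mean response (0.34 ± 0.06, limma adjusted p = 0.0047) but not in the knockout (0.13). Its genotype differences were not called, at -0.43 ± 0.12 in the difference of responses (limma adjusted p = 0.8442) and -0.50 ± 0.09 after VILI (limma adjusted p = 0.1784). Tnfaip3 lost its mean call (adjusted p = 0.083). With the filter at the 60th percentile, 12 target genes (21 with the 40th, where more were tested) and 8 genes between genotypes after VILI were called. With array medians set equal, Relb was -0.003 in the difference of responses and Nfkbia 0.001 between genotypes after VILI, and under quantile normalization they were -0.016 and 0.019. The share of calls that were higher in wild type moved from 41.23% to 52.46% with equal medians. With the mean of all probe sets, Nfkbia was -0.004 in the wild-type response, and after VILI the genotypes differed by 0.030 in Nfkbia, -0.128 in Nfkbie and 0.127 in Nfkbiz. The mean response of Tnfaip3 was 0.453 (adjusted p = 0.1236) there.

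With array weights (0.215 for wild-type SB replicate 3 to 9.973 for knockout VILI replicate 2, an estimate that did not converge), 7 members and 4244 genes were called in wild type, 5522 genes in the knockout and 12 other inhibitors in the mean response. There 1 member and 171 genes were called in the difference of responses, 102 genes between genotypes under SB and 852 after VILI. The difference of responses was -0.088 in Relb and -0.163 in Nfkbia, and the SB genotype difference 0.186 in Nfkb2, 0.035 in Rela, 0.158 in Nfkbia and 0.032 in Nfkbie.

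Whether replicate numbers pair the samples could not be settled, because deviations from group means of 3 arrays cannot exclude a shared day or batch. Of 18 same-number pairs, 3 deviated together with a correlation over 0.1 (range -0.628 to 0.398, against -0.544 to 0.706 in other pairs), and 3 of 12 arrays matched their own number best. With the replicate block, 0 genes were called between genotypes under SB and 2 after VILI, and the mean call of Tnfaip3 was lost (adjusted p = 0.05679), with no other change of a member's call in the responses. With only the groups compared, 845 genes were called in wild type and 0 between genotypes under SB, and the wild-type Relb response lost its call (adjusted p = 0.06483).

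With knockout SB replicate 2 and wild-type SB replicate 3 both left out, the arrays behind that 0.706, 11 genes were called in the difference of responses, 19 between genotypes under SB and 28 after VILI. The knockout response was -0.011 in Nfkbia and -0.025 in Tnfaip3, the difference of responses -0.106 in Relb, -0.064 in Nfkbia and -0.064 in Nfkbie, and the SB genotype difference 0.163 in Nfkb2, 0.004 in Rela, 0.059 in Nfkbia and 0.103 in Nfkbie. With replicates 1 and 2 of wild-type SB left out, which leaves 1 lung assumed to vary like the others, 27 genes were called in the difference of responses and 65 between genotypes under SB. The difference of responses was then 0.044 in Rela and -0.067 in Nfkbia, the SB genotype difference -0.095 in Relb, 0.063 in Nfkbia and -0.396 in Tnfaip3, and the responses of Relb in wild type (0.576, adjusted p = 0.0919) and Tnfaip3 in the mean (0.323, adjusted p = 0.2676) lost their calls.

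Leaving out 1 array at a time gave 3 to 6 members called in wild type, 5 to 6 in the knockout, 5 to 7 in the mean response and 0 in the other comparisons. Over all genes it gave 933 to 2052 in wild type, 1232 to 3301 in the knockout, 3551 to 4659 in the mean, 0 to 6 in the difference of responses, 0 to 16 between genotypes under SB and 2 to 19 after VILI, with 11 to 17 upstream genes, 6 to 8 other inhibitors and 18 to 22 targets in the mean. Values that crossed 0 were the knockout responses of Nfkbia (-0.011 to 0.201) and Tnfaip3 (-0.025 to 0.479). In the difference of responses they were Rela (-0.098 to 0.028), Relb (-0.137 to 0.130) and Nfkbia (-0.112 to 0.104). Between genotypes under SB they were Nfkb2 (-0.186 to 0.153), Rela (-0.065 to 0.009), Relb (-0.110 to 0.075), Nfkbia (-0.109 to 0.107) and Nfkbie (-0.356 to 0.023), and after VILI Relb (-0.129 to 0.128), Nfkbia (-0.035 to 0.030), Nfkbie (-0.049 to 0.118), Nfkbiz (-0.194 to 0.058) and Bcl3 (-0.089 to 0.099).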
